A study of Arabidopsis thaliana with 12 samples.

Results

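Bright transcripts with a steady level over the day were examined in shoots of Arabidopsis thaliana seedlings. They were chosen from log2 array values by a rule with a level limit and a range limit: a mean over the 12 arrays of at least 10, and a difference of less than 0.5 between the highest and the lowest of the 12 arrays. The rule took 267 of 22746 probe sets, a probe set being the group of array probes that together report a transcript. It took them from 2689 probe sets that met the level limit, called bright here, of which the members were 9.93%. Of the 267, 107 named a single gene with a locus, 12 named several genes, and 148 are not listed in the annotation used here and stay unnamed. Since the rule used every array, the values of these members over arrays and times are a description, and no test result is read from them.

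The plants were wild-type Columbia seedlings aged 10 days, and RNA came from the aerial part. They grew on agar with mineral salts and 1% sucrose in long days, with light for 16 h from 6am and darkness for the remaining 8 h. The harvests were made at 6am as the light came on, at 12pm and 6pm in the light, and at 12am in darkness, 6 h apart, each with 3 replicate arrays of total RNA. All 4 groups share genotype, medium and age, so they differ by harvest time alone as far as the labels tell. The labels do not give separate cultures for the replicates, so the spread between them may be technical. The overexpression line and the polysomal RNA that the study's descriptions name were not analysed here. RCA, the activase of the carbon-fixing enzyme Rubisco and the leaf marker with a named probe set, averaged 13.38, while 3 pollen markers lay at 2.10, the floor of the values. Among root markers, 3 peroxidase genes averaged 2.14 to 3.14 and the beta-glucosidase gene PYK10 averaged 11.64, and the tissue that its signal came from was not tested. Of the peroxidase genes, AT4G30170 and AT5G17820 reached 5.50 and 3.69 on the 12am replicate 2.

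Housekeeping transcripts code for machinery that every cell runs at all hours, such as ribosomes, respiration and protein turnover. A ribosome is built from ribosomal RNA and a set of mostly small, basic proteins, and plants encode most of these with several near-identical genes. In seedlings, the circadian clock and light move a large share of all transcripts through the day, which is why transcripts with a flat profile are sought as references for measuring the others.

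The members kept to a narrow band. Their range over the 12 arrays had a median of 0.42 on the log2 scale, a ratio of 1.34 between the highest and the lowest array, and the smallest range was 0.16. The limit itself allows a ratio of 1.41. The other 2422 bright probe sets had a median range of 1.01, and the widest reached 7.26. The means of the 4 times differed by 0.05 to 0.41 among the members, with a median of 0.22, against a median of 0.59 among the other bright probe sets. In 88 of the 267 members the range of the time means was wider than the widest range within a time, which was so in 1437 of the 2422 other bright probe sets. The members are only counted beside the background of the test: with limma's moderated F-test over the 4 times, 46.8% of the 14185 tested probe sets passed an adjusted p of 0.05, and 3 of the 267 members did. The rule chose the members on the same arrays, and nothing is read from that count.

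**Figure D1:**
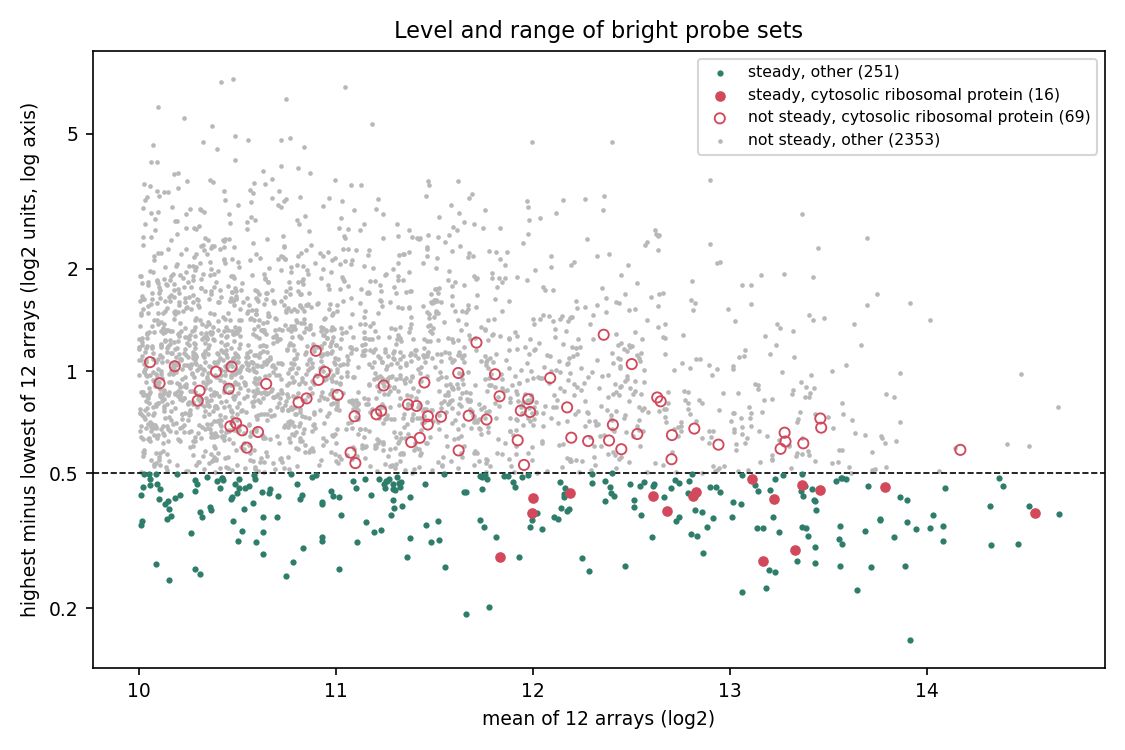
Each point is a bright probe set, with its mean over 12 arrays on the x axis (log2) and its highest minus lowest array on the y axis (log2 units on a log axis). Filled points under the dashed limit of 0.5 are the 267 members, 16 of them ribosomal protein transcripts (red), and members are denser among the brighter probe sets.

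The share of bright probe sets under the range limit was larger at higher levels. It was 5.67% at means of 10 to 11, 7.85% at 11 to 12, 16.1% at 12 to 13, 33.1% at 13 to 14 and 61.9% at 14 or above, where 13 of 21 probe sets were members. The highest value of any probe set was 15.05, and 28 members came within 1 log2 unit of the highest value of their array. Whether signals near that ceiling are compressed was not tested. Among 18 probe sets for control transcripts of bacterial and phage genes, 11 were bright and 1 of these kept under the range limit, with ranges of the 11 from 0.32 to 1.52.

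Cytosolic ribosomal proteins formed the largest named group, with 16 members among 85 bright probe sets (18.8%), while 8.65% of all bright probe sets naming a single gene were members. Level and group moved together: 7 of 13 ribosomal probe sets and 7 of 49 other named probe sets were members at means of 13 to 14, and 6 of 22 against 15 of 111 at 12 to 13. At 11 to 12 the counts were 2 of 29 ribosomal and 31 of 333 others, and at 10 to 11 they were 0 of 19 and 36 of 652. The ribosomal share was thus the larger at means of 12 to 14 and the smaller at 10 to 12, and these differences were not tested.

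The 16 members code for both ribosomal subunits and for the stalk. The large subunit proteins were L4 (AT5G02870), L6 (AT1G18540), L10a (AT1G08360), L12 (AT3G53430), L17 (AT1G67430), L19 (AT4G02230), L22 (AT3G05560), L28 (AT2G19730), L29 (AT3G06700), L31 (AT5G56710) and L37 (AT1G52300), and the small subunit protein was S26 (AT3G56340). The stalk, the flexible arm of the large subunit that recruits translation factors, was represented by P0 (AT3G09200), P1 (AT1G01100) and a pair of P2 genes (AT2G27710 and AT2G27720).

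AT4G02230, for L19, had the smallest range of them, 0.28. It read 13.28, 13.32 and 13.19 at 6am, 13.09, 13.08 and 13.16 at 12pm, 13.04, 13.07 and 13.24 at 6pm, and 13.10, 13.21 and 13.22 at 12am. The 6am arrays lay above the 12pm arrays without overlap, and the 6pm and 12am arrays overlapped with both.

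AT1G52300, for L37, had a range of 0.38. Its values were 14.66, 14.58 and 14.60 at 6am, 14.53, 14.36 and 14.34 at 12pm, 14.72, 14.50 and 14.57 at 6pm, and 14.59, 14.57 and 14.60 at 12am. The 12pm arrays were the low ones here too, below every 6am and 12am array, with an overlap at 6pm.

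AT5G02870, for L4, had the widest time means of the 16, 0.32 apart. It read 12.62, 12.72 and 12.69 at 6am, 12.39, 12.39 and 12.47 at 12pm, 12.82, 12.70 and 12.69 at 6pm, and 12.54, 12.73 and 12.60 at 12am. All 12pm arrays were below the other 9 arrays. AT3G56340, for S26, likewise had its 12pm arrays below the other 9, with 13.32, 13.32 and 13.32 at 6am, 13.09, 13.10 and 12.98 at 12pm, 13.32, 13.15 and 13.19 at 6pm, and 13.20, 13.31 and 13.40 at 12am.

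Within their band, all 16 ribosomal members had their lowest time mean at 12pm. Their 12pm mean lay below the mean of the other 3 times by 0.08 to 0.26 (median difference -0.18). The 91 other named members were lowest at 12pm in 35 cases, with a median difference of -0.05. The low point at 12pm was also seen in bright ribosomal transcripts outside the range limit: 62 of 69 were lowest then, with a median difference of -0.31, so that 78 of all 85 bright ribosomal probe sets were lowest at 12pm, while 880 of all 2689 bright probe sets were. After centring each array on its median, 16 of 16 members and 82 of 85 bright ribosomal probe sets were lowest at 12pm. So were 51 of the 91 other named members and 1057 of all 2689 bright probe sets, so centring raised these counts too. With replicates 2 and 3 alone, 14 of 16 and 76 of 85 were lowest at 12pm, beside 909 of all 2689. All 12pm arrays lay below the other 9 arrays in 2 of the 16 members and in 23 of the 85. The same was so in 208 of all 2689 bright probe sets and in 72 of the 1152 other named ones.

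**Figure D2:**
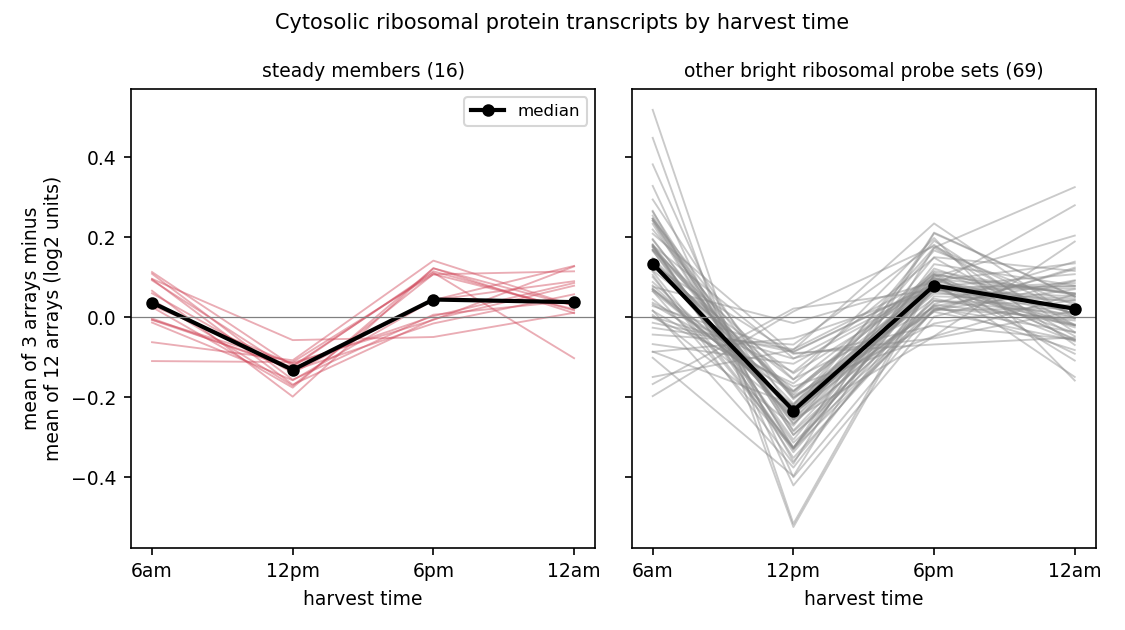
Each thin line is a bright cytosolic ribosomal probe set, plotted as the mean of 3 arrays at each harvest time minus its mean over 12 arrays (log2 units), with the 16 members on the left and the other 69 on the right. The black line is the median of each panel, and both panels have their low point at 12pm.

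The whole ribosomal list was tested as well. Of 229 listed genes, 130 had a named probe set and 112 were bright enough for the test, 16 of them members that the range limit keeps narrow. The F-test called 24 of the 112 (21.4%), beside 46.8% of all tested probe sets, and the count was 37 without the 6am replicate 1 and 15 without the 12pm replicate 1. The 16 members held 0 of these calls, so the rule fixes part of the low share, and the other 96 held 24 (25.0%). At 12am, 17 of the 112 (15.2%) were higher than at 12pm and 0 were lower by limma's test (adjusted p below 0.05), beside 13.9% higher and 14.2% lower among all tested probe sets. At an unadjusted p below 0.05, 34 were higher and 0 were lower, beside 19.4% and 19.1% of all tested. In this fit, the share called higher at the adjusted threshold is thus near that of all probe sets, and at the unadjusted threshold it was larger. The share called lower was 0 at both thresholds. The median difference of 12am minus 12pm was 0.24 over the list and 0.02 over all. Between 6pm and 6am, 1 was higher and 3 were lower at 6pm, beside 16.7% and 15.7% of all. The count of 17 fell to as few as 4 when a single array was left out, the 12am replicate 3. It was 8 without the 12pm replicate 2, the 12pm replicate 3 or the 12am replicate 2, and 9 without the 12pm replicate 1. Other settings raised it, to 22 without the 6am replicate 1 or after centring, and to 23 with no filter on dim probe sets. With the mean deviation of each replicate number removed (a replicate block), it was 37 (33.0%), with 0 lower. The block raised the calls of this contrast over all probe sets as well. Of the 4 root markers with a named probe set, 2 were raised on the 12am replicates 2 and 3, and AT3G01190 was slightly above the floor there. AT4G30170, a peroxidase gene, read 2.50, 5.50 and 4.93 at 12am, 2.20, 2.59 and 2.13 at 12pm, and 4.28, 2.91 and 3.12 at 6am. Its difference of 12am minus 12pm was 2.00 (adjusted p = 0.030, limma), and the F-test did not call it (adjusted p = 0.054, limma). AT5G17820 read 2.24, 3.69 and 3.50 at 12am and 2.12, 2.39 and 2.27 at 12pm. AT3G01190 read 2.10, 2.39 and 2.19 at 12am and 2.10 on each 12pm array. PYK10 read 11.19, 11.72 and 11.49 at 12am and 11.30, 11.64 and 11.61 at 12pm, with overlap. The part of root tissue in the ribosomal difference was not tested.

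Most ribosomal proteins are encoded by several paralogues, and membership split them. In the 15 protein families with a member, 38 of 43 known genes were measured, 29 were bright and 16 were members. The 13 bright paralogues outside the limit had ranges of 0.55 to 1.21. For L31, AT5G56710 was a member with a range of 0.45, while AT4G26230 had 0.72 and AT2G19740 had 0.74. For L12, AT3G53430 had 0.44, while AT2G37190 had 0.74 and AT5G60670 had 1.21. AT5G60670 read 11.94, 12.26 and 12.29 at 6am and 11.18, 11.31 and 11.08 at 12pm, and its steady paralogue AT3G53430 was also lower on average at 12pm, with 12.13, 12.34 and 12.37 at 6am and 11.94, 12.09 and 12.13 at 12pm. For L28, AT2G19730 had a range of 0.44 and AT4G29410 had 0.59. The P2 genes AT2G27710 and AT2G27720 are neighbours in the genome and were both members, with ranges of 0.42 and 0.38. Near-identical paralogues can share probe signal, and how far these probe sets are specific was not tested.

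Other parts of protein synthesis and targeting were represented by fewer genes. From the nuclear genes for plastid ribosomes, 2 of 10 bright probe sets were members. AT3G54210, for plastid L17, had a range of 0.26, and read 13.63, 13.67 and 13.73 at 6am, 13.66, 13.65 and 13.68 at 12pm, 13.89, 13.69 and 13.80 at 6pm, and 13.81, 13.74 and 13.64 at 12am. All 6pm arrays exceeded the 12pm arrays, and the other times overlapped with them. AT3G13120, for plastid S10, had a range of 0.36 and was highest at 6pm, where its 3 arrays (11.91, 11.84 and 11.94) lay above the other 9. Of translation and nascent-chain factors, 3 of 8 were members: AT1G73230 and AT3G12390, the beta and alpha subunits of the complex that shields new protein chains as they leave the ribosome, with ranges of 0.35 and 0.48, and AT1G48900, a signal recognition particle subunit that brings ribosomes to membranes, with 0.44. In the same list AT4G27130, a start-codon selection factor, was the widest bright transcript outside the limit. It read 12.73, 13.08 and 13.13 at 6am, against 11.45, 11.51 and 11.56 at 12pm, and 12.64 to 12.80 on the 6 later arrays, so its 12pm arrays stood more than 1 log2 unit below the others.

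The smallest range of any named member was 0.24, in UBC27, which codes for a ubiquitin-conjugating enzyme, the class that hands ubiquitin on to proteins marked for degradation. Its values were 10.01, 10.21 and 10.25 at 6am, 10.17, 10.21 and 10.18 at 12pm, 10.04, 10.11 and 10.15 at 6pm, and 10.24, 10.13 and 10.18 at 12am. The 6am arrays alone spanned the whole range, and the means of the 4 times differed by 0.09. UBC22 (AT5G05080), of the same enzyme class, had a range of 0.36, and its time means differed by 0.10. UBC28, on the same list of 4 bright genes, had a range of 1.26, with 12.92, 13.32 and 13.29 at 6am and 12.41, 12.43 and 12.06 at 12pm. The proteasome, which degrades the marked proteins, had 1 member among 4 bright subunit genes: AT2G32730, for a regulatory particle subunit, with a range of 0.45.

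SIRB, for an enzyme of siroheme synthesis, which makes the cofactor of nitrite and sulfite reduction, had a range of 0.25. It read 10.30, 10.30 and 10.40 at 6am, 10.33, 10.19 and 10.34 at 12pm, 10.19, 10.34 and 10.24 at 6pm, and 10.44, 10.25 and 10.44 at 12am. All 4 times overlapped. AT1G68660, for ClpS1, an adaptor that feeds proteins to the plastid Clp protease, had a range of 0.26, with 11.60, 11.53 and 11.58 at 6am, 11.65, 11.54 and 11.60 at 12pm, 11.60, 11.56 and 11.63 at 6pm, and 11.46, 11.52 and 11.39 at 12am. Its 12am arrays were below the other 9 arrays, though the nearest ones almost touched. The other named members with the smallest ranges were AT3G09580 (0.26), the RING finger gene AT1G71980 (0.27), AT5G42310 (0.27), which codes for an RNA-binding protein of the plastid, AT3G03070 (0.28), the ribosomal genes AT4G02230, AT1G18540 and AT3G06700 (0.28 to 0.30) and the DnaJ-type cochaperone gene AT4G39150 (0.30). Their ranges differ by hundredths of a log2 unit, so their order carries little. Another 6 members had ranges below that of UBC27, all on probe sets without a single named gene, from 0.16.

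**Figure D3:**
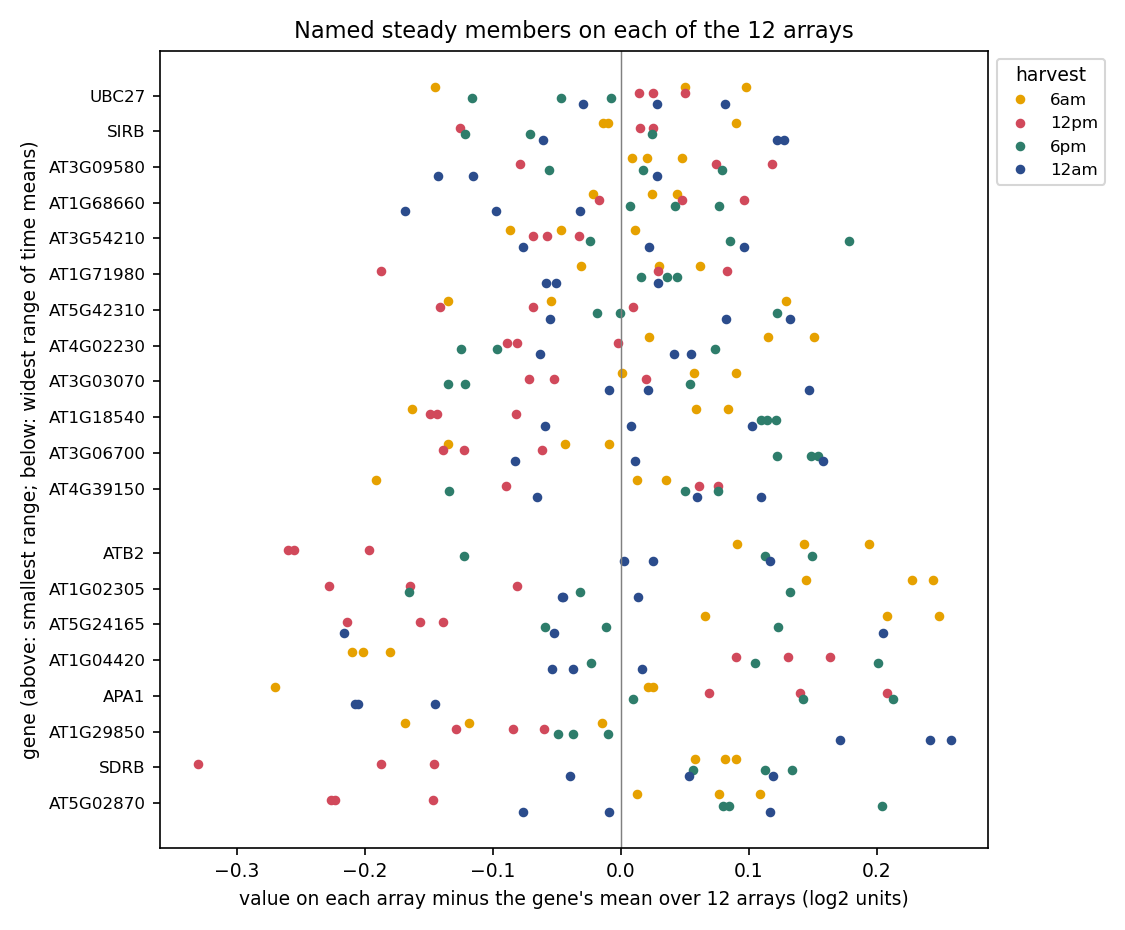
Each row is a named member and each point is an array, plotted as its value minus the gene's mean over 12 arrays (log2 units) and coloured by harvest time. The upper 12 rows, with the smallest ranges, mix the times in most rows. The lower 8 rows have the widest time means. Points of some times stand together there, as at 12pm for ATB2 and at 12am for AT1G29850. Others spread, as at 12am for AT5G24165, over 0.42.

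Energy metabolism was the next largest group. The mitochondrial respiratory chain, which passes electrons to oxygen and drives ATP synthesis, had 7 members among 27 bright probe sets. They were 4 subunits of complex I, AT3G03070, AT3G08610, AT4G02580 and AT5G47890, the complex III subunit AT4G32470, the cytochrome c oxidase subunit AT4G37830, and AT5G04750, a homologue of the inhibitor protein of ATP synthase. Their ranges ran from 0.28 to 0.50. AT3G03070 read 12.34, 12.31 and 12.25 at 6am, 12.20, 12.18 and 12.27 at 12pm, 12.11, 12.30 and 12.13 at 6pm, and 12.24, 12.27 and 12.40 at 12am, and all 4 times overlapped. Of the whole list, the F-test called 7 of 43 tested probe sets, beside 46.8% of all, with 11 without the 12am replicate 1 and 3 without the 12pm replicate 3. It was 4 without the 6am replicate 2 or the 12pm replicate 2. With the mean deviation of each replicate number removed (a replicate block), it was 17, beside 62.9% of all. The 43 include the 7 members that the range limit keeps narrow, so the rule fixes part of the low share. AT2G01090, a complex III subunit, had the widest range of the bright genes on the list, 1.08, with 12.94, 12.54 and 12.49 at 6am against 12.13, 11.86 and 12.02 at 12pm.

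Photosynthesis supplied 4 of 11 bright nuclear genes for thylakoid proteins and 1 of 4 for the Calvin cycle. The thylakoid members were LHCB4.1, which codes for an antenna protein of photosystem II (range 0.31), AT2G26500 for the PetM subunit of the cytochrome b6f complex (0.37), AT4G01150 for the membrane-bending protein CURT1A (0.39) and PSAE-1 for a photosystem I subunit (0.40). LHCB4.1 read 14.34, 14.32 and 14.37 at 6am, 14.61, 14.63 and 14.58 at 12pm, 14.49, 14.52 and 14.61 at 6pm, and 14.39, 14.37 and 14.33 at 12am. Its 12pm and 6pm arrays lay above all 6am and 12am arrays. LHCB4.2, for a homologue of the same antenna protein, was the widest of the list with a range of 1.37. It read 13.87, 14.10 and 14.07 at 6am, 14.25, 14.22 and 14.34 at 12pm, 13.04, 13.24 and 13.34 at 6pm, and 13.09, 13.03 and 12.97 at 12am, so it was high at 12pm as LHCB4.1 was but low at 6pm, where LHCB4.1 was not. Over the whole thylakoid list, the F-test called 7 of 13 tested probe sets (53.8%), near the 46.8% of all, and 1 was higher and 6 were lower at 12am than at 12pm, beside 13.9% and 14.2% of all tested.

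PRK, for phosphoribulokinase, which regenerates the acceptor of carbon dioxide, was the Calvin cycle member. Its values were 13.68, 13.65 and 13.61 at 6am, 13.60, 13.55 and 13.33 at 12pm, 13.68, 13.35 and 13.52 at 6pm, and 13.57, 13.60 and 13.57 at 12am. The range of 0.35 came mostly from within the times, the widest of which spanned 0.33. AT1G56190, for a phosphoglycerate kinase, had the widest range of the 4 bright genes, 1.13, with 11.10, 11.28 and 11.25 at 6am and 11.93, 12.23 and 12.16 at 12am. From the plastid genome, 1 of 41 bright probe sets was a member, ndhC, for a subunit of the plastid NADH dehydrogenase-like complex, with a range of 0.43. Limma's F-test called 0 of the 67 tested probe sets of plastid-encoded genes, also at an unadjusted p below 0.05, beside 46.8% of all tested. It called 4 without the 6am replicate 1, and 9 with the replicate block, beside 62.9% of all. The bright plastid-encoded probe sets had a median range of 1.91 over the 12 arrays, against 0.94 for all bright ones. Their time means differed by a median of 0.45. With arrays this far apart, the count of 0 does not show constant levels. Labelling was primed on poly(A) tails, which most plastid messages lack, and how that bears on their values was not tested.

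Protein folding and other cell functions made up the remaining listed members. Peptidyl-prolyl isomerases, which turn proline bonds as proteins fold, had 4 of 11: the plastid FKBP-type genes AT5G13410 (0.32), AT2G43560 (0.45) and AT1G20810 (0.48), and the parvulin-type gene AT1G26550 (0.47). The Sm proteins, which form the core ring of splicing particles, had 2 of 5, AT3G11500 (0.39) and AT1G20580 (0.50). AT3G03960, for a subunit of the cytosolic chaperonin, was 1 of 2 bright chaperone genes, and AT3G11630, for a plastid peroxiredoxin, was 1 of 5 on the redox list. APG8H, for a ubiquitin-like protein of the autophagosome membrane, was 1 of 4 bright ATG8 genes, with 11.55, 11.33 and 11.48 at 6am, 11.29, 11.25 and 11.27 at 12pm, 11.55, 11.39 and 11.50 at 6pm, and 11.34, 11.23 and 11.36 at 12am. Its 6am and 6pm arrays all lay above its 12pm arrays. ATG8F of the same family had a range of 0.74 and read 12.43 to 12.73 at 6am, against 11.98 to 12.26 at 12am.

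Another 61 named members, of 996 bright probe sets (6.12%), were on no list. Several serve biosynthesis: AT1G24360 codes for the ketoacyl reductase of plastid fatty acid synthesis (range 0.32), AT5G66120 for dehydroquinate synthase of the aromatic amino acid pathway (0.39), AT2G35040 for a bifunctional enzyme of purine synthesis (0.41), AT2G43760 for molybdopterin synthase (0.42) and AT2G35840 for sucrose-phosphatase (0.45). HCF101, which places iron-sulfur clusters in photosystem I, had a range of 0.34. AT5G46030, for an Elf1-type transcription elongation factor, had 0.31, AT5G27470, for a seryl-tRNA synthetase, had 0.39, and AT4G32060, for a mitochondrial calcium uptake regulator, had 0.46. These genes span all 5 chromosomes: members were 7.75% to 9.43% of the bright named probe sets of each nuclear chromosome, in the RefSeq annotation of TAIR10.1. The gene of a nuclear member had a median length of 1919.5 bp, against 2058 bp for the other bright nuclear genes.

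**Figure D4:**
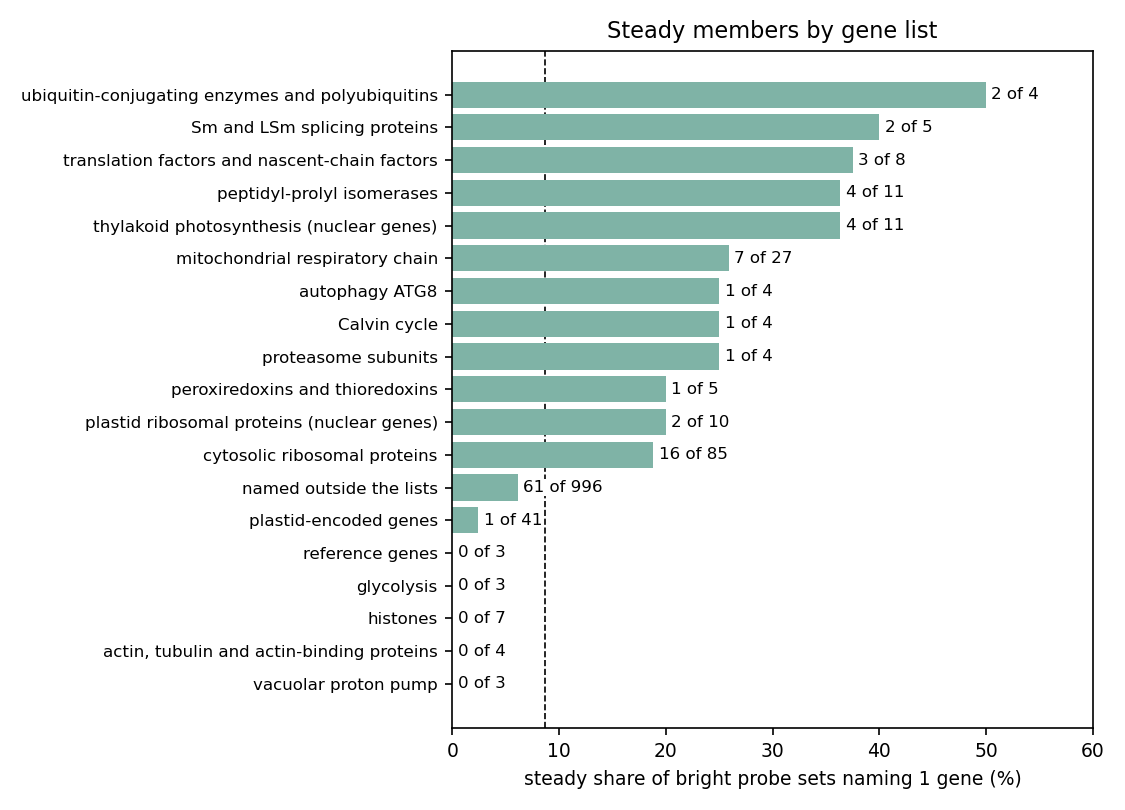
Each bar is the percentage of a list's bright probe sets that were members, with the counts beside it, for lists with at least 3 bright probe sets. The dashed line marks 8.65%, the share over all bright probe sets naming a single gene, and 5 lists have no member.

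Some classes often thought of as constant had no member. None of 4 bright genes for actin, tubulin and associated proteins was steady, and the F-test called 8 of 8 tested, beside 46.8% of all, with 6 higher and 2 lower at 6pm than at 6am, beside 16.7% and 15.7% of all. The F-test count was 5 with no filter on dim probe sets and 6 without the 12pm replicate 3. The number higher was 4 without the 6am replicate 1, and 3 without the 6pm replicate 2 or with no filter on dim probe sets. TUA6, an alpha-tubulin gene, read 11.57, 12.22 and 11.78 at 6pm and 10.02, 11.03 and 10.82 at 6am. Histone genes, with 0 of 7 bright probe sets steady, were called in 7 of 10 by the F-test and 6 were higher at 6pm than at 6am, beside the same 46.8% and 16.7% of all. The histone H2B gene AT2G37470 read 11.80, 11.62 and 11.78 at 6pm, and 10.63, 10.74 and 10.68 at 6am, with no overlap. There was likewise no member among the 3 bright genes of the vacuolar proton pump or the 3 of glycolysis. Of all bright probe sets naming a single gene 8.65% were members, and in counts this small the shares have little precision.

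Of genes in common use as references for quantitative PCR, 11 had a named probe set, 3 were bright, and 0 were members. Of all bright probe sets naming a single gene 8.65% were members, so 0 of 3 does not set these genes apart. GAPC2, for the glycolytic enzyme GAPDH, ranged over 0.95, with 11.49, 12.25 and 12.44 at 6am, 11.82, 12.22 and 12.18 at 12pm, 12.20, 12.32 and 12.09 at 6pm, and 11.75, 12.02 and 11.66 at 12am. Its widest range lay within 6am, where replicate 1 was the low array. AT5G46630, for a clathrin adaptor subunit, ranged over 1.28. TUB6, a beta-tubulin gene, ranged over 1.38. Of the 10 tested, limma's F-test called TUB6 alone (adjusted p = 0.023), beside 46.8% of all tested probe sets. It read 10.27, 10.77 and 10.16 at 6pm and 9.39, 9.98 and 9.86 at 6am, a difference of 0.66 (adjusted p = 0.024 for 6pm minus 6am, limma), which was no longer called without the 6am replicate 1, without the 6pm replicate 2 or with no filter on dim probe sets. The F-test call of TUB6 was lost without the 12pm replicate 2 (adjusted p = 0.052) or the 12pm replicate 3 (adjusted p = 0.055), and over its alternatives the limma adjusted p ran from 0.0062 to 0.059. Of the 8 below the level limit, 7 had ranges from 0.58, in AT4G26410, to 1.08, in PEX4, and AT5G55840 lay near the floor at 2.15. Over all probe sets, the median range was 1.26 at means of 6 to 8 and 1.10 at 8 to 10. It was 1.04 at 10 to 11 and 0.81 at 12 to 13. The ranges of the 7 lay below the median of their level, and those of the 3 bright genes lay above it.

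Steady by the rule did not mean flat in every member. The widest time means among named members were in ATB2, for an aldo-keto reductase, 0.38 apart. It read 11.30, 11.20 and 11.25 at 6am, 10.85, 10.91 and 10.85 at 12pm, 11.25, 10.98 and 11.22 at 6pm, and 11.22, 11.13 and 11.11 at 12am, with all 12pm arrays below the other 9. AT1G02305, for a cathepsin B-like protease, was highest at 6am with 12.04, 12.13 and 12.14, against 11.73, 11.67 and 11.82 at 12pm. The aspartic protease gene APA1 was low at 12am (13.42, 13.36 and 13.36) and high at 12pm (13.64, 13.71 and 13.78). AT1G29850 was high at 12am, with 12.91, 12.84 and 12.92, while its other 9 arrays lay between 12.50 and 12.66. AT1G04420, another aldo-keto reductase gene, was low at 6am (10.75, 10.73 and 10.72) and 10.88 or more on all later arrays. SDRB, for a short-chain dehydrogenase, was low at 12pm (11.15, 11.10 and 10.96). AT5G24165, with time means 0.34 apart, read 11.03, 11.11 and 11.09 at 12pm and 11.31, 11.49 and 11.45 at 6am. The highest time mean of these members fell at different times. The lowest mean was at 12pm in ATB2, AT1G02305, SDRB, AT5G24165 and the ribosomal gene AT5G02870. It was at 12am in APA1, and at 6am in AT1G29850 and AT1G04420.

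Across all 267 members, the highest time mean fell at 6am in 65, at 12pm in 50, at 6pm in 84 and at 12am in 68. The lowest fell at 6am in 72, at 12pm in 109, at 6pm in 37 and at 12am in 49. The other 2422 bright probe sets had their lowest mean at 6am in 768, at 12pm in 771, at 6pm in 453 and at 12am in 430. The arrays were scaled to one another before deposit, with medians of 5.90 to 6.03 over all probe sets, so a level steady relative to the rest of the array is what the rule selects, and amounts of messenger RNA per cell cannot be read from it.

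**Figure D5:**
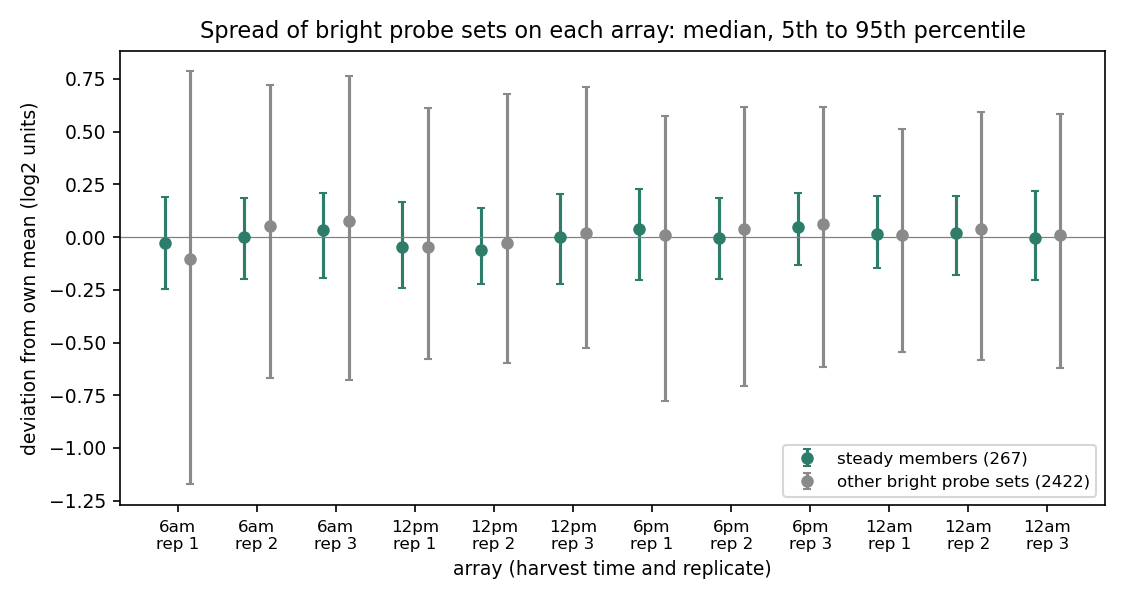
For each of the 12 arrays, points give the median deviation of probe sets from their own mean over 12 arrays (log2 units), and bars the 5th to 95th percentile, for the 267 members (green, left) and the other 2422 bright probe sets (grey, right). The grey bar of 6am replicate 1 reaches lowest, to -1.17, where that of the members ends at -0.25.

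Membership depended on replicate 1. Among the other bright probe sets, the lowest array was 6am replicate 1 in 701 of 2422, and among the members it was so in 53 of 267. With the replicate 1 arrays left out, 669 of the same 2689 bright probe sets kept under the range limit, and 402 of these were outside it on all 12 arrays. In 202 of the 402 the lowest array was 6am replicate 1, and in 73 it was 12pm replicate 1. Ribosomal probe sets under the limit then numbered 40 of 85 (47.1%), beside 24.9% of all bright probe sets. Plastid-encoded genes under it numbered 14 of 41 and the respiratory chain 13 of 27, while histones and the actin and tubulin list had 0. The lowest array was a replicate 1 in 62 of the 85 ribosomal probe sets, and 6am replicate 1 in 11. In the 2422 other bright probe sets it was replicate 1 of 6am, 12pm, 6pm and 12am in 701, 261, 198 and 93. With the rule applied anew to the arrays left, ribosomal members were 41 without replicate 1, 18 without replicate 2 and 19 without replicate 3. What sets the ribosomal share was not tested. A measure of how complete the labelled copies are, the log2 value of the actin control near the 3′ end minus that near the 5′ end, was 6.49 on 6am replicate 1, 5.18 on 12pm replicate 1, 6.17 on 6pm replicate 1 and 5.08 on 12am replicate 1. On the other 8 arrays it was 4.38 to 5.09, so the replicate 1 arrays of 6am, 12pm and 6pm were the highest. Its part in the choice of members was not tested.

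At the range limit the choice was a matter of hundredths. The members just inside, AT5G04830, AT5G47890, AT1G20580 and AT5G41970, had ranges of 0.49 to 0.50, and AT2G20740, HPR, AT1G02150 and AT5G03430 were just outside at 0.50. HPR, for the hydroxypyruvate reductase of photorespiration, read 13.90, 13.65 and 13.70 at 6am, 13.61, 13.57 and 13.40 at 12pm, 13.64, 13.42 and 13.46 at 6pm, and 13.82, 13.66 and 13.58 at 12am. At the level limit, the members AT3G08610, AT3G03960, AT1G71980 and AT5G41970 averaged 10.02 to 10.09, and AT1G77370, AT1G06010, AT5G22280 and AT2G40600 lay below it at 9.98 to 9.99 with ranges of 0.41 to 0.49.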

How the data were processed

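Per the submitters' processing notes, the authors used GCRMA, affy 1.42.3 and R 3.1, and they deposited a log2 value for each probe set of 1-colour Affymetrix arrays. The method subtracts modelled background, scales arrays to one another and summarises probes, so the level of a probe set depends on its probes and was not compared between genes. The sources used here do not say which arrays went into the normalization together. Arrays carry no read depth, and their number limits the precision.

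The 64 control probe sets were set apart. Probe sets were named from the platform annotation, joined by locus to RefSeq names of the TAIR10.1 assembly. The rule for the members was applied to the values as deposited. For tests across all probe sets, limma 3.58.1 in R 4.3.3 fitted time as a factor to all 12 arrays (8 residual and 3.44 prior degrees of freedom), with eBayes. Probe sets had to reach a log2 of 4 on at least 3 arrays, which left 14185 and took out 8561. P-values were two-sided for differences and adjusted over the 14185 probe sets by the Benjamini-Hochberg method. The script was tested on simulated data.

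The members, the 25 written gene lists, the list of plastid-encoded genes taken from the annotation, and the rule for named genes were chosen with earlier results of these data known. The loci of the lists were written after the named members had been seen, so shares of lists are descriptions. The rule named the 12 smallest ranges, the 4 nearest each side of both limits, the 8 widest time means, up to 4 members and the widest bright non-member of each list, the measured reference and marker genes, and the ribosomal paralogues. Members on no list, AT4G02580, AT5G04750 and further ribosomal members were named after their values were seen. Alternatives were other limits, array centring, a replicate block, no filter, an intensity trend and each replicate left out. Promoter motifs were not analysed here.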

Additional observations from a re-analysis of the deposited data

How the results depend on the processing

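The number of members was 267. It was 119 with a range limit of 0.4, 488 with 0.6, 1220 when the 4 time means alone had to keep within 0.5, and 518 with the mean deviation of each replicate number removed (replicate block), 262 of them shared. Leaving out arrays gave 283 to 675, with 405 without 6am replicate 1 and 675 without replicate 1 at all times. Minimum means of 9 and 11 gave 359 and 190, and centring gave 227, 199 of them shared. Bright ribosomal probe sets under the limit were 18.8%, 7.06% with a limit of 0.4, 29.4% with 0.6 and 47.1% without replicate 1, the last chosen after seeing the data. The F-test called 6639 probe sets, and 8927 with the replicate block. The block also raised 6pm minus 6am to 6204, against 4596 without it, and 12am minus 12pm to 5635, against 3987. Leaving out an array gave 5723 to 7011 calls of the F-test, 3766 to 4821 of 6pm minus 6am and 3005 to 4599 of 12am minus 12pm. With the block, calls of the F-test were 62.9% of all tested. They were 17 of 43 in the respiratory chain list, against 7 without it, 39 of 112 in the ribosomal list, against 24, and 9 of 67 among plastid-encoded genes, against 0. By the contrasts with the block, 8 plastid-encoded probe sets were lower at 6pm than at 6am and 7 were higher at 12am than at 12pm. Ribosomal calls higher at 12am than at 12pm were 17, 37 with the block, 22 after centring, 24 with the trend and 22 with replicates 2 and 3 alone, where 1 was lower, a count chosen after seeing the data. Arrays of the same replicate number correlated in their deviations from the time means at 0.055 to 0.649, and those of different numbers at -0.559 to 0.397. By number, these were 0.263 to 0.564 for replicate 1, 0.369 to 0.649 for replicate 2 and 0.055 to 0.398 for replicate 3. All same-numbered pairs were thus positive. With 1 pair below 0.1, the numbers were still not taken as pairs. The list counts of the main fit therefore rest on the fit without the block, which made fewer calls over all probe sets. For named genes, 616 recomputed F-test results kept their side of the threshold, 15 lost the call and 9 gained it.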

Other observations

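Control probe sets for ubiquitin transcripts, left out by the rule, differed by their place along the transcript. The array carries a pair of control designs. The 3′ probe sets ranged over 0.13 and 0.22 across the 12 arrays, the middle one over 0.43, and the 5′ ones over 0.61 and 0.54. No explanation was tested. The 3′ control probe sets for actin ranged over 1.28 and 1.52, and those for GAPDH over 1.92 and 1.96.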
